A study of Mus musculus with 4 samples.

Results

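To learn how enzymes of myeloid activation were expressed after deletion of PD-1 in myeloid cells, 8 genes were followed through RNA-seq of 4 mouse libraries: Acod1, Upp1, Nos2, Arg1, Arg2, Ass1, Nampt and Sod2. They are 8 of the 24706 genes listed in every library and were found by gene name. Acod1 and Upp1 were chosen for the size of their increase in the libraries labelled cko, so that their difference between the groups is given as a description, with no test. The other 6 are enzymes of activated and suppressive myeloid cells.

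All 4 libraries are labelled as myeloid cells, 2 of genotype wt and 2 of genotype cko. The study describes the cko mice as PD-1f/f; LysM-Cre, in which Cre expressed from the Lyz2 locus acts on a floxed Pdcd1 gene in myeloid cells, and the controls as PD-1f/f mice in its figures but as wild-type mice in its methods. The cells are CD11b+ cells sorted from the liver at P3 according to its results, whereas its methods name RNA of P2 fetal livers and no sorting. The labels do not say whether the replicates came from separate pups, so that p-values measure only the spread between these libraries. This spread may be technical in cko, whereas the wt libraries differed in a Y-linked transcript (below) and so did not hold the same animals.

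Counted reads ranged from 17691505 to 22212407 per library. Pdcd1 had 28.5 and 34.7 FPKM in wt and 17.1 and 21.4 FPKM in cko, so transcripts of the targeted gene remained. FPKM are reads divided by gene length and by the library total. Itgam, which encodes CD11b, had 48.5 to 54.3 FPKM at its main identifier and Ptprc, which encodes the leukocyte antigen CD45, had 58.1 to 75.1 FPKM. Transcripts of the Y-linked gene Ddx3y were abundant in wt replicate 2 only (24.9 FPKM against at most 0.00866 in the other libraries). Sex thus differed between the wt libraries, and male RNA was all but absent from both cko libraries. Whether sex had a part in the differences between the groups was not tested.

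Macrophages and other myeloid cells rewire their metabolism when they sense bacterial products or cytokines. Acod1 diverts cis-aconitate from the citric acid cycle to itaconate, an inhibitor of succinate dehydrogenase with anti-inflammatory and antibacterial actions. Arginine is shared between nitric oxide synthase and the arginases, and this choice has long been used to tell inflammatory from suppressive myeloid cells. Upp1 splits uridine into uracil and ribose 1-phosphate, Nampt starts the salvage of NAD from nicotinamide, and Sod2 removes superoxide in mitochondria. Several of these genes are textbook targets of NF-κB, interferon-activated STAT factors or AP-1.

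Because Acod1, Upp1 and Sod2 were the members past the looser of the study's thresholds, given with the comparison of the groups, sequences upstream of their start sites are shown. They are the RefSeq windows of GRCm38.p6, 250 bases before the start site on the plus strand, and 5 of the 8 genes had entries (7 windows), with none for Nos2, Arg1 and Arg2. Capitals mark matches to the motifs searched on both strands, and for Acod1 only the match with 10 bases on each side is given (chr14:103046974-103046999). The Upp1 window is chr11:9117758-9118007 and the Sod2 window is chr17:13007589-13007838.
Acod1: agtgactgtgTATAAAggcacacgtc
Upp1: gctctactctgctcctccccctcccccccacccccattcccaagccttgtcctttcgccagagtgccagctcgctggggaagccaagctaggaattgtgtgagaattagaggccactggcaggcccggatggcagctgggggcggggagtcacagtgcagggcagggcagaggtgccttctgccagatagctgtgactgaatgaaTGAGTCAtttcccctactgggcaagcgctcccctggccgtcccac
Sod2: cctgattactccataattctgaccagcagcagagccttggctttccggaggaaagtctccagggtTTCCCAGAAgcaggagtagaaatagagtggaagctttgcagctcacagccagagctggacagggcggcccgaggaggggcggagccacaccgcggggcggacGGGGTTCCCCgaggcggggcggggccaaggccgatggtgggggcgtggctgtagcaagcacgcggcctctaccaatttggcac
The Acod1 match is to the TATA motif (TATAAA), held by 12.4% of all 32851 windows of this length. It begins at position -28 from the RefSeq start site, 103047012. The deposited gene begins at 103046977, so the match lies inside the deposited gene. Upp1 had an AP-1 motif (TGANTCA, 6.75% of windows) at position -45 from the first of its 3 start sites. The same match lay at -140 from the second, 9118103, where the deposited gene begins, and the window of the third held no match. In Sod2 an NF-κB consensus match (7.25% of windows) lay at position -83 and a GAS motif for STAT factors (TTCNNNGAA, 7.02% of windows) at position -185, and these matches do not overlap. No match was found in the windows of these 5 members to the ISRE core (2.98% of windows) or the cAMP response element (TGACGTCA, 1.55% of windows), and the windows of Ass1 and Nampt held none of the 6 motifs. Base composition differed between members, with 62.4% G and C in this Upp1 window, 63.6% in Sod2 and 75.6% in both Ass1 and Nampt. Binding was not measured, and a match describes these letters only.

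Among the 8 genes, Acod1, Upp1, Nos2 and Sod2 differed most between the groups, Ass1, Arg2 and Nampt were higher in cko by smaller amounts, and Arg1 overlapped between wt and cko. Every gene except Arg1 had its highest level in cko replicate 2. None of the differences passed an adjusted p under 0.05 in limma.

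Acod1 (ENSMUSG00000022126, chromosome 14, 103046977 to 103056573, plus strand) had 16.9 and 3.32 FPKM in wt replicates 1 and 2 and 54.7 and 311 FPKM in cko replicates 1 and 2. These values came from 986, 164, 2690 and 14410 reads. Both cko libraries were above both wt libraries, yet the replicates of each group stood far apart, with wt replicate 1 at 5.09 times wt replicate 2 and cko replicate 2 at 5.67 times cko replicate 1. Counting error was small beside this, since 95% Clopper-Pearson intervals were 41.7 to 47.2 and 7.43 to 10.2 RPM (reads scaled to a common library total) in the wt libraries, 138 to 149 in cko replicate 1 and 801 to 828 in cko replicate 2. Such intervals cover counting error only. The group means were 10.1 ± 9.62 FPKM in wt and 183 ± 181 FPKM in cko (SD, n = 2 libraries each), an 18.04-fold ratio. Acod1 was the most abundant of the 8 genes in 3 libraries but was only the fifth in wt replicate 2. Among the 10779 tested genes wt replicates 1 and 2 placed it at percentiles 76.9 and 35.8 of the levels, and cko replicates 1 and 2 at percentiles 91.8 and 98.7. In bulk libraries, more cells of a type and more RNA per cell cannot be told apart, for Acod1 as for the genes that follow.

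Upp1 (ENSMUSG00000020407, chromosome 11, 9118103 to 9136170, plus strand), the uridine phosphorylase, had 3.60 and 2.28 FPKM in wt and 13.8 and 44.8 FPKM in cko (157, 84, 507 and 1554 reads). The order of the libraries was that of Acod1, with wt replicate 2 lowest and cko replicate 2 highest. The means were 2.94 ± 0.939 FPKM in wt and 29.3 ± 21.9 FPKM in cko (SD, n = 2), a 9.96-fold ratio, and cko replicate 2 had 3.25 times the level of cko replicate 1. Upp2, the second uridine phosphorylase gene, did not pass the filter on low values. Within the libraries, the ratio of Acod1 to Upp1 varied from 1.46 in wt replicate 2 to 6.93 in cko replicate 2, so these genes did not keep a fixed proportion.

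**Figure D1:**
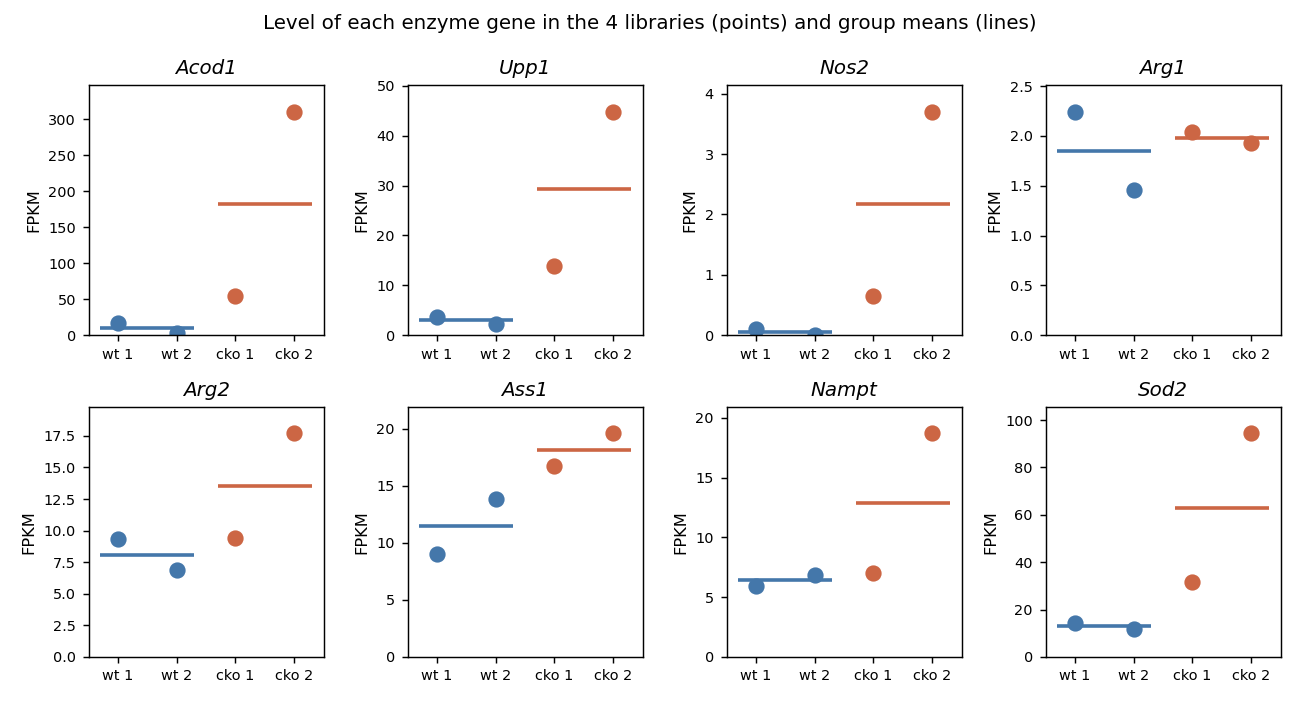
Level of each enzyme gene in FPKM (vertical axes, each from 0 and on its own scale) in the 4 libraries (points), with the mean of each group as a line, wt in blue and cko in orange. For 7 genes cko replicate 2 is the highest point, and Arg1 alone has overlapping groups, with 1.45 to 2.24 FPKM in wt and 1.93 to 2.04 FPKM in cko.

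To compare the groups, limma was fitted to log2(FPKM + 1) of the 10779 genes whose average over the libraries reached 1 FPKM, and SE is the standard error it gave. On this scale the change of genes with low FPKM is understated. All 8 members passed the filter, Nos2 only through its cko libraries, since its mean was 1.11 FPKM over 4 libraries. With |log2FC| of at least 1 and a Benjamini-Hochberg adjusted p under 0.05, 0 members and 0 genes in all (0.0% of those tested) passed, whereas 1768 genes (16.4%) had an unadjusted p under 0.05, among them Ass1 and Sod2 of the 5 members that were neither chosen for their increase nor passed the filter only through cko. Voom on the recovered reads passed 2 genes, neither of them a member. At the looser threshold of |log2FC| above 1 with an unadjusted p under 0.01, 247 genes (2.29%) passed, 203 of them higher in cko (1.88%) and 44 lower (0.408%). Acod1, Upp1 and Sod2 were among the higher genes, of which Acod1 and Upp1 were chosen on this contrast. Of all tested genes past this threshold, the split of higher to lower was 141 to 72 with median-of-ratios rescaling and 146 to 74 with quantile normalization. The count of members past it was 3, and was 1 without wt replicate 1, 0 without wt replicate 2 and 5 without cko replicate 1, with Nos2 and Nampt added. These counts are fixed in part by the choice of Acod1 and Upp1 and, for Nos2, by the filter. Both cko libraries lay above both wt libraries for 7 of the 8 genes, against 33.6% of all genes tested. Of these 7, Acod1 and Upp1 were chosen for their increase and Nos2 passed the filter only through cko, so their place here was fixed in part. The others were Arg2, Ass1, Nampt and Sod2. None of the 8 lay below, and groups did not overlap in either direction for 51.6% of all tested genes. With cko replicate 1 alone or cko replicate 2 alone, the same 7 genes, with the same limit, were above both wt libraries, as were 46.7% and 47.3% of all tested genes. For any single gene, exact permutation of 2 against 2 libraries reaches a two-sided p of 0.333 at the least.

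Nos2 (ENSMUSG00000020826, chromosome 11, 78920787 to 78960254, plus strand), the inducible nitric oxide synthase that makes nitric oxide and citrulline from arginine, was almost silent in wt. It had 0.102 and 0 FPKM in wt and 0.641 and 3.70 FPKM in cko, from 10, 0, 53 and 289 reads. The groups did not overlap, and cko replicate 2 stood 5.78-fold above cko replicate 1. In RPM, the 95% intervals were 0.216 to 0.828 in wt replicate 1, 2.12 to 3.70 in cko replicate 1 and 14.5 to 18.3 in cko replicate 2, and 0 reads in wt replicate 2 allowed at most 0.196. The ratio of the group means was 42.6 and rests on 10 wt reads. As Nos2 passed the filter only through its cko libraries, its difference is given with no test. The log2 fold change was 1.40 (SE 0.53), and with either cko library alone it was 0.64 or 2.16, the larger with cko replicate 2. It depends on how values near 0 are treated, with 3.56 at a pseudocount of 0.1 and 5.77 with voom on the recovered reads. The neuronal and endothelial synthases Nos1 and Nos3 had at most 0.643 FPKM in any library.

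Arg1 (ENSMUSG00000019987, chromosome 10, 24915221 to 24927484, minus strand), the cytosolic arginase that makes ornithine and urea and marks suppressive myeloid cells, did not follow the other genes. It had 2.24 and 1.45 FPKM in wt and 2.04 and 1.93 FPKM in cko (111, 61, 85 and 76 reads), with both cko values between the wt values. The log2 fold change was 0.08 (SE 0.24, limma adjusted p = 0.897), and its sign turned with quantile normalization (-0.05) and without wt replicate 2 (-0.12). As arginase 1 is also a urea cycle enzyme of hepatocytes, the levels of 14 hepatocyte markers bear on it. Their sum was 89.8 and 149 FPKM in wt and 62.6 and 76.6 FPKM in cko. Of the 9 tested markers, 5 were lower in both cko libraries than in both wt libraries, as were 18.0% of all tested genes. A log2 fold change above 0 was found for 1 of the 9, against 60.4% of all tested genes. Hnf4a did not pass the filter on low values, with 0.131 and 0.0880 FPKM in wt (14 and 8 reads) and 0 in both cko libraries. What part hepatocyte RNA had in the level of Arg1 was not tested.

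Arg2 (ENSMUSG00000021125, chromosome 12, 79130777 to 79156301, plus strand), the mitochondrial arginase, had 9.30 and 6.85 FPKM in wt and 9.38 and 17.7 FPKM in cko (295, 184, 251 and 447 reads). The cko values were above the wt values, but cko replicate 1 by less than the wt replicates differed from each other. Its log2 fold change was 0.63 (SE 0.32, limma adjusted p = 0.376), with 0.21 from cko replicate 1 alone and 1.06 from cko replicate 2 alone. Arg2 was the more abundant arginase, at 4.15, 4.71 and 4.61 times the FPKM of Arg1 in wt replicates 1 and 2 and cko replicate 1 and at 9.18 times in cko replicate 2. Its exons share 285 bases with Vti1b and 116 bases with an antisense RNA on the opposite strand, and whether reads were counted by strand is not given in the sources used here, so its level is uncertain. Vti1b, a vesicle fusion gene, had 15.1 and 16.3 FPKM in wt and 13.7 and 19.6 FPKM in cko.

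Ass1 (ENSMUSG00000076441, chromosome 2, 31470207 to 31520672, plus strand) encodes argininosuccinate synthase, which with argininosuccinate lyase rebuilds arginine from the citrulline that nitric oxide synthase releases. It had 9.05 and 13.8 FPKM in wt and 16.8 and 19.6 FPKM in cko (485, 629, 758 and 836 reads). Both cko libraries were higher, and unlike Acod1 they were close together, with cko replicate 2 at 1.17 times cko replicate 1. The log2 fold change was 0.65 (SE 0.23, limma unadjusted p = 0.0341 and adjusted p = 0.271), and it ranged from 0.37 to 0.93 when a library was left out. Asl, the lyase, had 5.73 and 6.47 FPKM in wt and 9.16 and 8.27 FPKM in cko (limma adjusted p = 0.277). Of the genes that feed the urea cycle in hepatocytes, Cps1 had 0.0973 and 0 FPKM in wt and 0.240 and 0.275 FPKM in cko (12, 0, 25 and 27 reads), higher in cko, and Otc had 0.297 and 0.138 FPKM in wt and 0.0881 and 0.03998 FPKM in cko, lower in cko. What part hepatocyte RNA had in the level of Ass1 was not tested.

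Within the arginine branch the ratio of Nos2 to Arg1, in FPKM, was 0.0455 and 0 in wt, 0.315 in cko replicate 1 and 1.92 in cko replicate 2. Only in cko replicate 2 did Nos2 exceed Arg1. The ratio of Ass1 to Arg1 was 4.03 in wt replicate 1 and between 8.23 and 10.2 in the other libraries, so that the groups overlapped for that ratio.

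Nampt (ENSMUSG00000020572, chromosome 12, 32819545 to 32853349, plus strand), the rate-limiting enzyme of NAD salvage, had 5.96 and 6.87 FPKM in wt and 7.02 and 18.7 FPKM in cko (669, 654, 665 and 1672 reads). The group difference rested on cko replicate 2, while cko replicate 1 was barely above wt replicate 2. The log2 fold change was 0.76 (SE 0.42, limma adjusted p = 0.412), and it was 0.12 without cko replicate 2 and 1.41 without cko replicate 1. The long noncoding gene Gdap10 lies inside the Nampt locus on the same strand without shared exon bases, and had 6.16 and 6.95 FPKM in wt and 11.8 and 29.0 FPKM in cko.

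Sod2 (ENSMUSG00000006818, chromosome 17, 13007839 to 13018119, plus strand), the mitochondrial manganese superoxide dismutase, had the largest log2 fold change on the log2(FPKM + 1) scale of the 6 genes that were not chosen for their increase, though Nos2 was above it at a pseudocount of 0.1 (3.56 against 2.06) and with voom (5.77 against 2.06). It had 14.3 and 11.9 FPKM in wt and 31.7 and 94.4 FPKM in cko, from 1217, 858, 2274 and 6383 reads (for a length of 3824 bases, the smallest that gave whole reads). Each cko library exceeded each wt library by more than the wt replicates differed from each other, and cko replicate 2 was 2.97-fold above cko replicate 1. The means were 13.1 ± 1.702 FPKM in wt and 63.0 ± 44.3 FPKM in cko (SD, n = 2), a 4.803-fold ratio. The log2 fold change was 1.99 (SE 0.49, limma unadjusted p = 0.00761 and adjusted p = 0.214), and adjusted p ranged from 0.0874 to 0.615 over all alternatives. With either cko library alone it was 1.22 or 2.76, the larger with cko replicate 2, and it fell short of the looser threshold when either wt library was left out (1.87 and 2.11), with no filter on low values, with median-of-ratios rescaling and without a trend. Sod2 was the second most abundant of the 8 genes in every library. Its cytosolic counterpart Sod1 had 8.78 and 11.1 FPKM in wt and 16.4 and 16.0 FPKM in cko (log2 fold change 0.66, SE 0.17, limma adjusted p = 0.214).

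**Figure D2:**
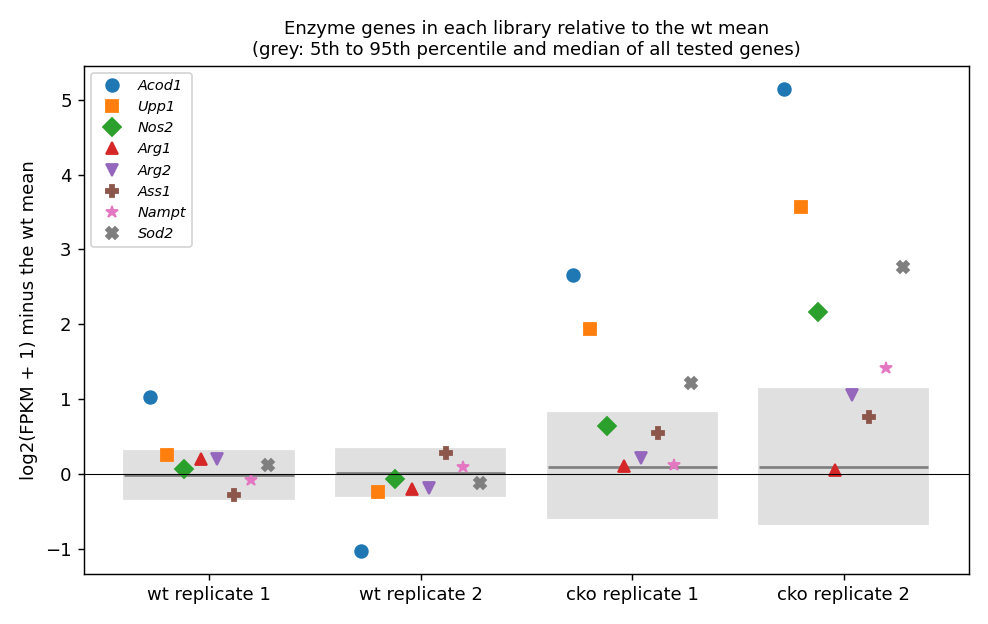
Log2(FPKM + 1) of each enzyme gene in each library minus its wt mean (vertical axis, log2 units), with a symbol for each gene, and the 5th to 95th percentile (box) and median (line) of all tested genes in grey. In cko replicate 1 Acod1, Upp1 and Sod2 lie above the box, which ends at 0.82, and in cko replicate 2 Nos2 and Nampt do so as well, above 1.14.

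The 8 enzymes are set beside all tested genes here as a description. Of them, Acod1 and Upp1 were chosen for their increase and Nos2 passed the filter only through cko. The median absolute difference of log2(FPKM + 1) between cko replicates was 1.41 for the members and 0.23 for all tested genes, and between wt replicates it was 0.40 and 0.22. The median log2 fold change was 1.08 for the members and 0.09 for all tested genes. In cko replicate 1 the deviation of Sod2 from its wt mean, 1.22, exceeded that of 98.25% of the tested genes, and in cko replicate 2 its deviation of 2.76 exceeded that of 99.61%. Arg1 stood near the middle of all genes in both cko libraries, with 51.65% and 45.97% of them below it, whereas for Nampt this share was 52.82% in cko replicate 1 and 96.66% in cko replicate 2. For 7 of the 8 genes cko replicate 2 was the highest of the 4 libraries, as it was for 33.8% of all tested genes.

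The summed level of the 8 genes was 61.5 and 46.5 FPKM in wt and 136 and 511 FPKM in cko. Acod1 made up 27.5% and 7.14% of this sum in wt and 40.2% and 60.7% in cko. Without Acod1 the other 7 genes summed to 44.6 and 43.2 FPKM in wt and to 81.4 and 201 FPKM in cko. The order of levels in wt replicate 1 was Acod1, Sod2, Arg2, Ass1, Nampt, Upp1, Arg1 and Nos2, from high to low, and in wt replicate 2 Ass1 led and Acod1 was below Arg2. In cko replicate 2 the order was Acod1, Sod2, Upp1, Ass1, Nampt, Arg2, Nos2 and Arg1. Many neighbours in these orders did not differ beyond the spread of the replicates. In wt, the range of Acod1 (3.32 to 16.9 FPKM) overlapped those of Sod2, Ass1, Arg2, Nampt and Upp1. In cko Upp1, Arg2, Ass1 and Nampt overlapped each other, as did Acod1 and Sod2, Sod2 and Upp1, and Nos2 and Arg1. The files annotate Acod1, Arg2, Ass1 and Sod2 with the term mitochondrion (10.9% of tested genes), Acod1, Nos2 and Sod2 with response to lipopolysaccharide (1.16%), and Arg1, Arg2 and Ass1 with urea cycle.

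Over the 4 libraries, the patterns most like that of Acod1 were those of Cxcl10, Ccrl2, Gm23722 and Cxcl2, with root mean square differences of centred log2(FPKM + 1) between 0.571 and 0.823. For Upp1 they were Gm23722, Cxcl2, Saa3 and Ccrl2, between 0.0977 and 0.211. Cxcl10 and Cxcl2 encode chemokines, Saa3 an acute phase protein and Ccrl2 an atypical chemokine receptor. Cxcl10 had 5.98 and 2.03 FPKM in wt and 16.3 and 73.8 FPKM in cko, and Cxcl2 had 38.0 and 27.3 FPKM in wt and 110 and 449 FPKM in cko. Likeness was taken on the pattern for which Acod1 and Upp1 were chosen and describes these 4 libraries. Among the members, Arg2 and Nampt were the most alike (0.265) and Acod1 and Arg1 the least (2.19), while Upp1 differed from Sod2 by 0.389.

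No other gene of the itaconate pathway passed the looser threshold. Tested were 13 of 14 genes that make cis-aconitate, use or break down itaconate, or are acted on by it. Of these, 7 had a log2 fold change above 0 (60.4% of all tested genes) and 1 had an unadjusted p under 0.05 (16.4%). Their median log2 fold change was 0.01, against 0.09 for all tested genes, and turned to -0.11 with median-of-ratios rescaling. Sdha, the catalytic subunit of succinate dehydrogenase, had 67.1 and 66.2 FPKM in wt and 86.1 and 89.1 FPKM in cko (log2 fold change 0.39, SE 0.13, limma adjusted p = 0.257). Sdhd, the membrane anchor subunit, had 219 and 264 FPKM in wt and 210 and 251 FPKM in cko, so that the groups overlapped. Cs, the citrate synthase, had 20.9 and 20.7 FPKM in wt and 26.5 and 25.0 FPKM in cko.

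Most tested genes of arginine, polyamine and nitric oxide metabolism had higher values in cko, as had 60.4% of all tested genes. Of 22 genes, 15 were tested, 13 had a log2 fold change above 0, 10 were higher in both cko libraries than in both wt libraries (33.6% of all tested genes) and 2 lower in both (18.0% of all tested genes), with 0 past the looser threshold. The median log2 fold change was 0.36, and 0.16 without cko replicate 2. Gch1, which makes the biopterin cofactor that nitric oxide synthase needs, had 0.779 and 0.708 FPKM in wt and 1.54 and 2.73 FPKM in cko (log2 fold change 0.82, SE 0.29, limma adjusted p = 0.266). Oat, the ornithine aminotransferase, had 22.2 and 29.8 FPKM in wt and 39.8 and 39.3 FPKM in cko (limma adjusted p = 0.240). For polyamines, the spermidine synthase Srm had 4.05 and 5.48 FPKM in wt and 6.14 and 10.004 FPKM in cko, and Azin1, an antizyme inhibitor, had 40.8 and 38.2 FPKM in wt and 48.0 and 59.0 FPKM in cko. Neither passed the adjusted threshold in limma (adjusted p = 0.322 for Srm and 0.288 for Azin1).

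Nucleoside genes lay on both sides of 0. Of 18 genes, 12 were tested, 4 were higher in both cko libraries than in both wt libraries (33.6% of all tested genes) and 3 lower (18.0%), with 0 past the looser threshold and a median of 0.01, which turned to -0.10 with median-of-ratios rescaling. Uck2, a uridine kinase that returns uridine to nucleotides, had 1.84 and 1.27 FPKM in wt and 3.61 and 3.78 FPKM in cko, with a log2 fold change of 0.89 (SE 0.22, limma adjusted p = 0.214). Pnp, the purine nucleoside phosphorylase, had 27.0 and 25.8 FPKM in wt and 36.6 and 42.6 FPKM in cko (limma adjusted p = 0.218). Ada, the adenosine deaminase, had 17.0 and 21.6 FPKM in wt and 48.4 and 25.7 FPKM in cko, with cko replicate 1 the highest.

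In the NAD list of 15 genes, 11 were tested and 10 had a log2 fold change above 0, against 60.4% of all tested genes. The looser threshold was passed by 1, Cd38 (2.29% of all tested genes). Cd38, which breaks down NAD at the cell surface, had 18.6 and 13.4 FPKM in wt and 35.6 and 40.2 FPKM in cko, with a log2 fold change of 1.21 (SE 0.20, limma adjusted p = 0.183). Its cko replicates lay close together, in contrast to those of Nampt, and its call was lost without wt replicate 2 and without cko replicate 2. The NAD kinase Nadk had 249 and 298 FPKM in wt and 278 and 342 FPKM in cko, overlapping, and Qprt, of NAD synthesis from tryptophan, had 1.87 and 3.35 FPKM in wt and 2.16 and 0.727 FPKM in cko.

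Among 17 genes of superoxide and oxidant defence, 14 were tested and 9 had a log2 fold change above 0, against 60.4% of all tested genes. In both cko libraries 5 were higher and 3 lower than in both wt libraries (33.6% and 18.0% of all tested genes). Hmox1, the haem oxygenase, passed the looser threshold with 84.3 and 68.7 FPKM in wt and 135 and 257 FPKM in cko (log2 fold change 1.28, SE 0.32, limma adjusted p = 0.214), a call that was lost in 7 of the 14 alternatives. Prdx5, a peroxiredoxin, was lower, with 998 and 1085 FPKM in wt and 809 and 776 FPKM in cko (limma adjusted p = 0.261), and Txn1, the cytosolic thioredoxin, overlapped between groups at 178 to 203 FPKM. The median of the list was 0.11, and -0.01 with median-of-ratios rescaling.

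Of 7 factors known to induce these enzymes, 6 were tested and all 6 had a log2 fold change above 0, against 60.4% of all tested genes. The 6 dropped to 4 with median-of-ratios rescaling or quantile normalization. Irf1, an interferon-induced factor that acts on Nos2, passed the looser threshold with 25.9 and 21.2 FPKM in wt and 47.4 and 102 FPKM in cko (log2 fold change 1.53, SE 0.36, limma adjusted p = 0.214), and no longer did so when either wt library or cko replicate 2 was left out, with no filter on low values, or without a trend. Hif1a had 11.3 and 13.7 FPKM in wt and 15.5 and 34.7 FPKM in cko (limma adjusted p = 0.332). Stat6, which conveys interleukin 4 signals to Arg1, had 74.4 and 86.2 FPKM in wt and 78.0 and 88.8 FPKM in cko, so that the groups overlapped as they did for Arg1.

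**Figure D3:**
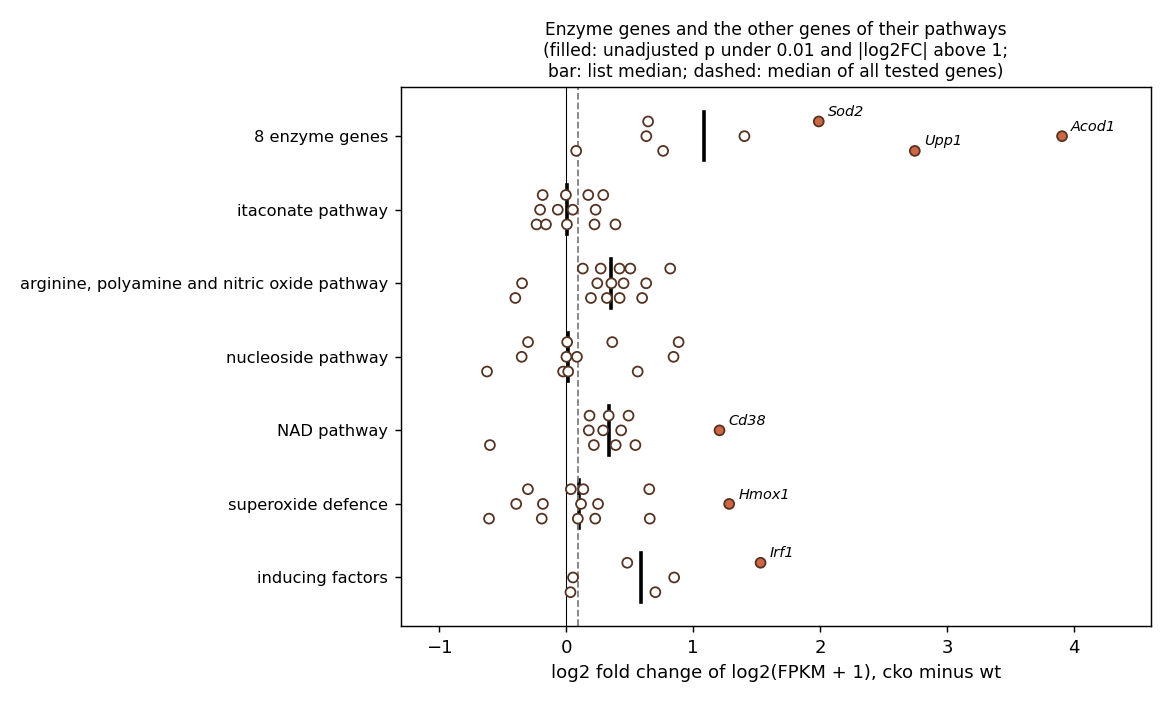
Log2 fold change of log2(FPKM + 1), cko minus wt (horizontal axis), of the 8 enzyme genes and of the tested genes of 6 pathway lists (rows, 1 point per gene). Filled points passed |log2FC| above 1 with an unadjusted p under 0.01, bars are list medians and the dashed line is the median of all tested genes, 0.09. Besides Acod1, Upp1 and Sod2, only Cd38, Hmox1 and Irf1 are filled.

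Marker levels of other myeloid cells moved with the enzymes in part. The 8 monocyte markers summed to 526 and 494 FPKM in wt and 505 and 654 FPKM in cko. A log2 fold change above 0 was found for 7 of the 8, against 60.4% of all tested genes. In both cko libraries only 2 of the 8, Csf1r and F13a1, were higher than in both wt libraries (33.6% of all tested genes). Ly6c2 alone was lower (18.0%), and the others overlapped. The median of the 8 was 0.33 and became 0.01 without cko replicate 2. Csf1r, the receptor for the monocyte growth factor, had 40.9 and 32.98 FPKM in wt and 45.6 and 113 FPKM in cko, and F13a1 had 44.1 and 34.1 FPKM in wt and 55.4 and 80.2 FPKM in cko, whereas Ly6c2 had 333 and 315 FPKM in cko against 343 and 360 FPKM in wt.

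The 10 macrophage markers summed to 392 and 266 FPKM in wt and 269 and 452 FPKM in cko. Of the 10, 6 had a log2 fold change above 0, against 60.4% of all tested genes. That count rested on single libraries, with 1 without cko replicate 2, 2 without wt replicate 2 and 9 without either wt replicate 1 or cko replicate 1. Marco, a scavenger receptor, had 44.0 and 24.3 FPKM in wt and 30.8 and 94.0 FPKM in cko, so that wt replicate 1 exceeded wt replicate 2 and cko replicate 2 exceeded cko replicate 1, as for Acod1. The complement genes C1qa and C1qb overlapped between groups, at 86.5 to 140.3 and 69.4 to 109 FPKM. The 7 dendritic cell markers summed to 2.58 and 2.63 FPKM in wt and 2.87 and 4.45 FPKM in cko. Only 1 of them, Itgax, passed the filter on low values, and most of the sum in cko replicate 2 was Itgax. It had 0.506 and 0.852 FPKM in wt and 0.678 and 3.17 FPKM in cko. Cd209a was at 0 in wt replicate 2 and cko replicate 2.

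Summed markers of several other cell types were lower in cko. The 12 neutrophil markers summed to 160740 and 136510 FPKM in wt and 109870 and 91323 FPKM in cko. Of the 3 most abundant, Ngp overlapped between groups, with 43779 and 43834 FPKM in wt and 46573 and 35443 FPKM in cko. S100a9 had 52186 and 39000 FPKM in wt and 28604 and 26142 FPKM in cko. S100a8 had 32243 and 21503 FPKM in wt and 13010 and 12062 FPKM in cko. The sum is carried by a few very abundant genes. In both cko libraries 7 of the 12 were lower and 3 higher than in both wt libraries (18.0% and 33.6% of all tested genes). The higher genes were Csf3r, Cxcr2 and Elane (log2 fold changes 0.57, 0.52 and 0.41), and the median of the list, -0.46, turned to 0.06 with quantile normalization. The 10 erythroid markers summed to 3751 and 2352 FPKM in wt and 1432 and 1524 FPKM in cko, and 9 of them were lower in both cko libraries (18.0% of all tested genes). B cell markers summed to 52.6 and 66.9 FPKM in wt and 33.6 and 43.2 FPKM in cko, and T cell markers to 7.11 and 7.90 FPKM in wt and 4.73 and 3.47 FPKM in cko. Nearly all of the latter was Cd3d, the only T cell marker tested, with 6.50 and 7.55 FPKM in wt and 4.62 and 3.15 FPKM in cko, while Cd3e was at 0 in both wt libraries and Cd4 in both cko libraries. Mast cell, basophil and eosinophil markers summed to 305 and 144 FPKM in wt and 115 and 139 FPKM in cko, and endothelial and stromal markers to 30.6 to 37.3 FPKM in all 4 libraries. In this list Stab2, a scavenger receptor of sinusoidal endothelium, was higher (0.319 and 0.315 FPKM in wt, 3.61 and 4.76 FPKM in cko) and Dcn, a matrix proteoglycan, lower (4.41 and 3.72 FPKM in wt, 1.499 and 0.765 FPKM in cko), both past the looser threshold. With hepatocyte and erythroid markers removed and the rest rescaled, Sod2 had a log2 fold change of 2.19 and Ass1 of 0.84. The part of cell composition in the differences of the 8 enzymes was not tested.

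**Figure D4:**
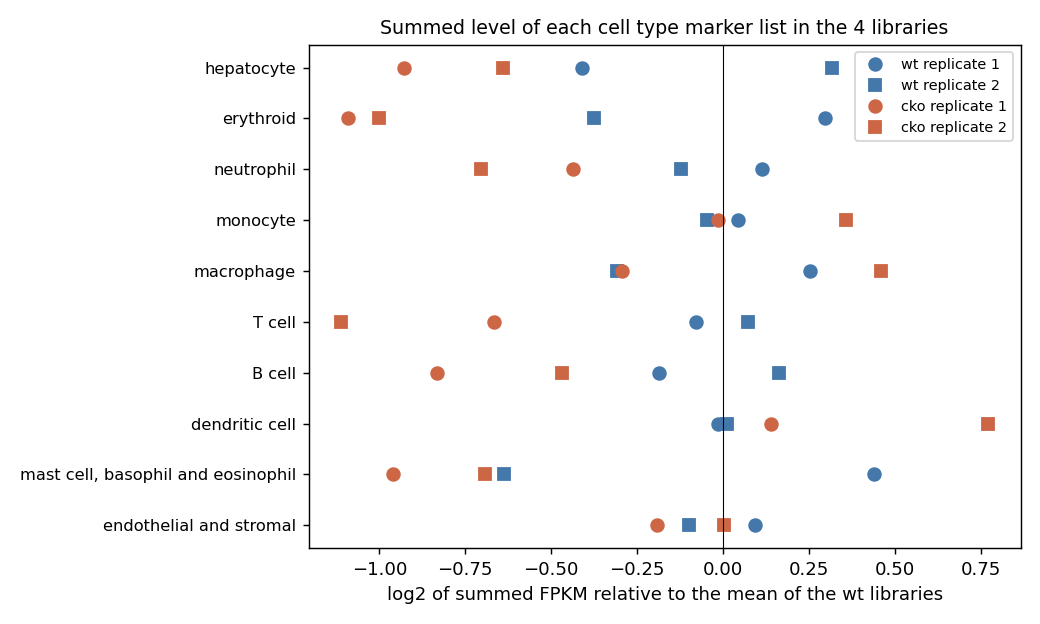
Log2 of the summed FPKM of each cell type marker list relative to the mean of the wt libraries (horizontal axis) in the 4 libraries (wt in blue, cko in orange, circles for replicate 1 and squares for replicate 2). Erythroid, neutrophil, hepatocyte, B cell and T cell sums are lower in both cko libraries, and cko replicate 2 has the highest monocyte, macrophage and dendritic cell sums. Itgax makes up 3.17 of the 4.45 FPKM in the dendritic cell sum of cko replicate 2.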

How the data were processed

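RNA was measured in 4 libraries, grouped by the genotype in their labels (2 wt, 2 cko). The authors deposited FPKM per gene for 24706 genes, a file for each library, named RPKM in the methods. The submitters' processing notes list Bowtie2 2.2.3, TopHat2 2.0.12 and HTSeq 0.6.0 and the build mm9, while 92.62% of the deposited gene positions were identical to GRCm38 (GENCODE M21), and coordinates are given as deposited. Settings are not given in the sources used here. FPKM values were whole multiples of 1 read (tolerance 0.01), which gave library totals and the reads of 98.08% of genes, 91.17% with the annotated length. In a 1 kb gene, 1 read adds 0.0450 to 0.0565 FPKM.

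Groups were compared in R 4.3.3 with limma 3.58.1 (lmFit and trended eBayes, no covariate). The values were log2(FPKM + 1) of 10779 genes averaging 1 FPKM or more, with Benjamini-Hochberg adjustment over all of them and both thresholds of the study. The fit was tested on simulated reads with the same relative spread for every gene. That test cannot show how the fit performs at the spread of these replicates. The replicate numbers were not used as pairs in the main fit. Across genes, the difference between replicates in wt correlated at -0.163 with that in cko. With 1 difference per group, this cannot show whether libraries were prepared in pairs. Alternatives were a pseudocount of 0.1, no filter or a filter at 5 FPKM, rescaling by median of ratios or by quantiles, hepatocyte and erythroid markers removed, no trend, a replicate block, voom on reads (average of 10 or more), and leaving out each library. Each cko library alone, list medians under each setting and crossed replicate numbers were added after the data were seen.

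The 8 members and all gene lists were chosen with earlier results of these data known. Genes named are the members, Pdcd1 and Lyz2, of each pathway list those past the looser threshold, the 2 with the largest change and the 2 with the highest mean, of each marker list those among the 3 highest, and the 4 genes most like Acod1 and Upp1. Lyz2, which carries the Cre insertion, had 31306 and 32147 FPKM in wt and 10422 and 8127 FPKM in cko. Other genes named for context (Nos1, Nos3, Upp2, Asl, Cps1, Otc, Hnf4a, Csf3r, Cxcr2, Elane, Stab2, Dcn, Cd3e, Cd4, Cd209a, Itgam, Ptprc, Ddx3y and genes overlapping Arg2 and Nampt) were added after their values were seen. Promoter windows are those of RefSeq, cut to 250 bases before the start site. Tables were made with Python 3.11.15 and scipy 1.17.1, and figures with matplotlib 3.10.9.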

Additional observations from a re-analysis of the deposited data

How the results depend on the processing

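All 8 log2 fold changes were recomputed under 14 alternatives, giving 110 values, of which 93 kept their direction and their side of the looser threshold, 13 lost the threshold, 2 passed it newly and 2 turned in sign. The latter were those of Arg1, -0.052 with quantile normalization and from -0.121 (without wt replicate 2) to 0.28 with a library left out. Arg1 and Nos2 had no value with a filter at 5 FPKM, which they did not reach. The count of genes past the adjusted threshold was 0 and became 2 with voom. The count past the looser threshold was 247, became 126 with a filter at 5 FPKM, which tests fewer genes, and ranged from 131 (without cko replicate 2) to 462 (without cko replicate 1) when a library was left out, with 147 without wt replicate 1. Its split of higher to lower genes, 203 to 44, was 350 to 17 with hepatocyte and erythroid markers removed. The median log2 fold change of all tested genes was 0.09, -0.01 with median-of-ratios rescaling, -0.02 with quantile normalization and 0.27 with those markers removed.

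Of the 8 members, whose choice fixes part of this count, 3 passed the looser threshold, and 1, Upp1, did so with no filter, with median-of-ratios rescaling or without a trend, the cause of which was not tested. With a library left out the count ranged from 0 (without wt replicate 2) to 5 (without cko replicate 1). Leaving a library out leaves a group with 1 sample, which is assumed to vary like the other group. With the replicate block 258 genes and 2 members, Upp1 and Sod2, passed. With the replicate numbers crossed, 363 genes passed the looser threshold, 3 of them members, and 1 gene, Acod1, passed the adjusted threshold, which is no test of Acod1, since it was chosen for its increase. The log2 fold changes of Nampt, Arg2 and Nos2 ranged from 0.12 to 1.41, from 0.21 to 1.06 and from 0.64 to 2.16 with a library left out, and that of Nos2 was 3.56 at a pseudocount of 0.1 and 5.77 with voom. Depth limits Nos2 most, with 10 reads in the wt libraries.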
